A study of Mus musculus with 8 samples.

Results

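The regions described here are the 2776 places in the genome of splenic type 2 conventional dendritic cells (cDC2) where CUT&Tag signal for the protein DC-SCRIPT was higher in wild-type cells than in cells lacking Zfp366, the gene that encodes it. They are every peak of the authors' cDC2 comparison, and they make up 8.11% of the 34249 peaks of both dendritic cell subsets of the study. All mice were labelled female, of strain C57BL/6. The wild-type group (zfp366+/+) was 1 library and the knockout group (zfp366-/-) was 2 libraries, each from a pool of mice, and their age is not given. The other subset, cDC1, had 3 wild-type and 2 knockout libraries and is used below only for comparison. In both subsets the knockout cells served as the control for signal that does not depend on DC-SCRIPT. The part of Zfp366 that was deleted is not given either.

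DC-SCRIPT is a zinc finger protein found mainly in dendritic cells, and it is known to bind the corepressor CtBP and to alter the activity of nuclear receptors. Conventional dendritic cells sample antigen and prime T cells: cDC1 depend on the transcription factors IRF8 and BATF3 and excel at showing foreign antigen to CD8 T cells, while many cDC2 depend on IRF4 and NOTCH2 and mainly prime CD4 T cells. In CUT&Tag an antibody against a chromatin protein brings a transposase to the DNA that the protein occupies, and the DNA cut there is sequenced. Sequenced ends are counted as tags, which in these data come in steps of 0.5, and a pile of tags is called a peak.

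The cDC2 tag sets were smaller than those of cDC1. The wild-type set held 4.77 M tags and the knockout set 6.83 M tags, against 35.5 M tags and 12.1 M tags in cDC1. The share of wild-type tags that fell in peaks, given in the authors' file headers as IP efficiency, was 0.790% in cDC2 and 6.47% in cDC1. A peak's signal is given below as tags scaled to a total of 10000000, so 1 wild-type tag in cDC2 was worth 2.09 normalised tags and 3 knockout tags were worth 4.40. The lowest knockout value listed, 0.5 tag, also stands for no tag, and for such peaks only the lower limit of the fold is given. Peaks were called on 1 wild-type and 1 knockout set of tags, so there is no spread between mouse pools and no test between genotypes. Every interval is an exact 95% interval that covers counting error only.

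The sequences under 9 of the peaks that lie just before a gene's start site are shown first, since they are the DNA at which the signal was measured. Zbtb3, Nlrp3 and Usp32 had the highest peaks centred in a promoter window, and Itgam, Cx3cr1 and Notch2 are genes that mark or form cDC2. Havcr2, Hpgds and Snd1 are shown because their peaks hold the letters GGAAGT, the core recognised by transcription factors of the ETS family such as PU.1. All except Zbtb3 and Itgam were picked after their values were seen. Each run is the part of the peak that lies in the 250 bases before the start site, 5′ to 3′ on the strand of the gene, from the RefSeq promoter table of GRCm38.p6, and capitals mark GGAAGT on either strand.
Zbtb3, chr19:8802263-8802390, plus strand: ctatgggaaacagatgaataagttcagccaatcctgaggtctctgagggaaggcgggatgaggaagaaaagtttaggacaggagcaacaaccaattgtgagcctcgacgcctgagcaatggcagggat
Nlrp3, chr11:59542436-59542625, plus strand: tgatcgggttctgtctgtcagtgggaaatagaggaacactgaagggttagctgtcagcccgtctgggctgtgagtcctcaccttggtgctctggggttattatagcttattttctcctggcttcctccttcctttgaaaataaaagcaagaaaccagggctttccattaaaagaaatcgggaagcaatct
Usp32, chr11:85140024-85140205, minus strand: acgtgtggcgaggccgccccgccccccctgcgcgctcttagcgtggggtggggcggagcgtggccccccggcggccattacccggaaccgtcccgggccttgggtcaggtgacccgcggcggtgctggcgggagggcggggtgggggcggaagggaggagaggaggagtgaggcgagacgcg
Itgam, chr7:128062511-128062639, plus strand: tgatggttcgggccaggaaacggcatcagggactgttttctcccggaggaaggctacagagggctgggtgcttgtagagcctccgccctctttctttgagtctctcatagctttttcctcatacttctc
Cx3cr1, chr9:120068297-120068446, minus strand: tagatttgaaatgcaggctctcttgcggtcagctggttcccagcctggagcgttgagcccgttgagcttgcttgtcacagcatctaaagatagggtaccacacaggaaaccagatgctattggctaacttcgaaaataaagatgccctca
Notch2, chr3:98013288-98013417, plus strand: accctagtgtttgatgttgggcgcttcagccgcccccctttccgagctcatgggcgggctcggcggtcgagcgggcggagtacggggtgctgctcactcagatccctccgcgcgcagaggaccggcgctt
Havcr2, chr11:46454777-46454930, plus strand: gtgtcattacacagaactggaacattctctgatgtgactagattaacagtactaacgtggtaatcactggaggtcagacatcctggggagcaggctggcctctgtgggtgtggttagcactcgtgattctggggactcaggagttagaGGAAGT
Hpgds, chr6:65144731-65144896, minus strand: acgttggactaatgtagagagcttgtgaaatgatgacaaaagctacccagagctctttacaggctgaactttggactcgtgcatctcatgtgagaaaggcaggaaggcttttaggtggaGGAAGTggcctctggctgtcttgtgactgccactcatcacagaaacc
Snd1, chr6:28480098-28480243, plus strand: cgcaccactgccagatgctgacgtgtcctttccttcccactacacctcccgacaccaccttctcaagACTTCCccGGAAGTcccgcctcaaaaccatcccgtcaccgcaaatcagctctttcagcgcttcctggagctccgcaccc

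The Zbtb3 peak was centred 218 bp before the start site, and that peak held 85.5 wild-type tags against 8 knockout tags. Nlrp3, which encodes an inflammasome sensor, had 43.5 wild-type tags against 8 knockout tags, and the stretch shown is 46.3% G or C and holds 3 CpG pairs. Usp32, a deubiquitinase gene with the same number of wild-type tags and 5 knockout tags, has a stretch that is 77.5% G or C with 23 CpG pairs. The highest start-site peaks thus differed widely in base composition. Havcr2, which encodes the inhibitory receptor TIM-3, had 24.5 wild-type and 5 knockout tags, and its GGAAGT ends at the last base before the start site. Hpgds, a prostaglandin D2 synthase gene, had 17.5 and 5 tags. In Snd1, which encodes a nuclease of RNA silencing complexes, the motif occurs on both strands with 2 bases between the copies, and the tags were 22 and 6.5.

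The motif was counted over whole promoter windows, which run from 250 bases before to 50 bases after a start site, on both strands. A peak centre fell in the window of 160 genes (152 peaks). GGAAGT was present in 58 of those windows, 36.2% (exact 95% interval 28.8% to 44.2%), and in 24.9% of the windows of all 17492 genes in the table. GAGGAAGT, the longer form bound by PU.1 and contained in the first count, was present in 6.88% and 3.21%. The AP-1 motif TGANTCA was present in 10% (5.82% to 15.7%) and 7.05%, and the RUNX motif TGTGGT in 13.1% (8.31% to 19.4%) and 15.3%. The GC box GGGGCGGGG was present in 21.9% (15.7% to 29.1%) and 15.4%, and the E-box CAGGTG in 12.5% (7.81% to 18.6%) and 19.4%. The intervals of GGAAGT, PU.1-type GAGGAAGT and the GC box lay above the share of all windows and that of CAGGTG below it. For GAGGAAGT and the GC box the lower limit was close to that share. The intervals of CCGGAAGT, the composite, AP-1 and RUNX held it, as did those of the IRF, CRE, NF-kB, NRF1 and CCAAT motifs. The median GC content was 60.3% in the 160 windows and 56.3% in all windows, and the median number of CpG pairs was 19.5 and 13. The part of base composition in these counts was not tested. A match names letters in a window and not a bound factor.

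In cDC2 the wild-type signal was high at a small number of regions, and most of the 2776 peaks rested on few tags. The peak nearest to Cep295, a centrosome gene, had 189.5 normalised tags (90.5 tags) in wild type and 9.52 (6.5 tags) in knockout. The peak next to Zbtb3, a gene for a zinc finger protein of the BTB family, had 178.0 in wild type and 11.7 in knockout. Inside Cadm1, which encodes an adhesion molecule that marks cDC1, the values were 166.5 and 32.2. The plot of wild-type against knockout signal shows these 3 standing apart from the mass of peaks, whose median was 24.1 normalised tags in wild type, with quartiles of 18.8 and 32.5. The median knockout signal was 3.66, and the median fold of wild type over knockout was 7.42, with quartiles of 5.24 and 11.4. In tags, the median peak rested on 11.5 wild-type and 2.5 knockout tags, and 906 peaks (32.6%) rested on fewer than 10 wild-type tags. A fold of at least 4 was required by the authors, so no peak of the list can show equal signal.

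The highest value of the list belonged to an unplaced contig of the assembly, JH584304, at 393.7 normalised tags. It had 188.5 wild-type and 49 knockout tags, a fold of 5.50 (4.01 to 7.71), and also the most knockout tags of any peak. No protein-coding gene of the annotation table lies on this contig. Below Cadm1 came the peaks assigned to Atp1b3, a sodium pump subunit, with 131.9 in wild type and 15.4 in knockout, and to Pxdc1, with 131.9 and 12.5. Cass4, an adhesion scaffold gene, had 126.7 and 11.7 inside the gene, and Gtf3c5, a subunit of an RNA polymerase III factor, 112.0 and 13.2. All 4 folds lay between 8.58 and 10.8. Ier5, an immediate early gene, followed with 106.8 and 14.7, Glipr2 with 103.7 and 13.2, and B4galnt1, a ganglioside synthase gene, with 102.6 and 19.8. Il1a, which encodes interleukin 1 alpha, had 100.5 in wild type and 10.3 in knockout at a peak 10.2 kb before its start site. Ifnar2, which encodes part of the receptor for type I interferons, had 98.4 and 10.3, and Pde4b, a phosphodiesterase that degrades cyclic AMP, 97.4 and 16.1. Ubash3b, a phosphatase that dampens receptor signalling, had 97.4 and 13.9, and Ggta1, a galactosyltransferase gene, 96.3 and 19.8. These 16 highest peaks all overlapped a cDC1 peak.

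Peaks that were high in wild type were also higher in knockout. Across the 2776 peaks the rank correlation of wild-type with knockout signal was 0.81, and that of wild-type signal with fold was -0.50; the points share both tag sets, and the limits on fold and p trim them. In the 694 peaks of lowest wild-type signal the median fold was 11.4 and 38.6% of peaks had knockout tags at the floor, while in the 694 of highest signal the median fold was 5.72 and 0.720% were at the floor. The largest folds were therefore mostly folds over very few knockout tags. After the contig and Cadm1, the most knockout tags were 13.5 at B4galnt1, 13.5 at Ggta1, 13.5 at Plau, which encodes the protease urokinase, and 13 at Dppa3. At Plau the wild-type value was 93.2 and the knockout value 19.8, a fold of 4.76 (2.48 to 9.06). Dppa3 had 86.9 and 19.0. The lowest fold, 4, was listed among others at Il20ra, Cemip2 and St6gal1, where 14 wild-type tags stood against 5 knockout tags and the interval ran from 1.36 to 14.2. Just inside the authors' limit, 533 peaks (19.2%) had a fold under 5.

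At 382 peaks (13.8%, 12.5% to 15.1%) the knockout value was at the floor. The highest lay on chromosome Y and is described below. Snapin, a gene for a protein of vesicle trafficking, had 38.7 normalised tags (18.5 tags) in wild type, with a fold of at least 6.67 by its lower limit. Snx30, a sorting nexin gene, had 34.6 with a lower limit of 5.90. Nek6, a mitotic kinase gene, and Btaf1, a regulator of TATA-binding protein, had 33.5 each with a lower limit of 5.51. The peaks of Nek6 and Btaf1 lay inside the gene, and those of Snapin and Snx30 lay within 2 kb outside it. Peaks at the floor had a median of 16.8 wild-type normalised tags, which is 8 tags. Their share was 8.57% (6.19% to 11.5%) of peaks within 1 kb of a gene end and 15.4% (13.3% to 17.6%) of the other peaks inside genes.

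The focus ratio is HOMER's measure of peak shape, the fraction of tags that lie on the side of the peak centre where a single binding point would put them. Over the list it had a median of 0.690, quartiles of 0.643 and 0.743, and a range of 0.464 to 0.917. It hardly moved with height: the median was 0.704 in the 694 peaks of lowest wild-type signal and 0.682 in the 694 of highest, with a rank correlation of -0.10. Among the 100 highest peaks the largest ratios were those of Zfp608 with 0.827, Tcte2 with 0.816, a peak 2.10 kb before the start site of Antxr2 with 0.811, Mefv with 0.808 and Il1a with 0.802. Zfp608 encodes a zinc finger protein, Antxr2 an anthrax toxin receptor, and Mefv the inflammasome protein pyrin. The smallest were those of Tomm20 with 0.551, Ccr1 with 0.557, Sfi1 with 0.562, a peak inside Antxr2 with 0.566 and Ifnar2 with 0.582. Antxr2 thus held a peak near each end of the range. Its 0.811 peak had 40 wild-type and 6 knockout tags and its 0.566 peak 35 and 2. The 1767 peaks shared with cDC1 had a rank correlation of 0.39 between the focus ratios of the subsets. At Ccr1 it was 0.557 in cDC2 and 0.529 in cDC1, at Ifnar2 0.582 and 0.596, and at Il1a 0.802 and 0.730. The lowest ratio of the whole list, 0.464, stood at a peak 48.6 kb from Jak1, the kinase of interferon and cytokine receptors, and the ratio at the same place in cDC1 was 0.524.

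More of the peaks lay inside protein-coding genes than at start sites, but the share of the genome that either place covers was not computed. The values are shares of the list and do not measure enrichment. Of the 2775 peaks on chromosomes with annotated genes, 50.1% (48.2% to 52.0%) were centred inside a gene. Within 1 kb of either gene end lay 16.8% (15.5% to 18.3%), in or outside the gene, and over 10 kb from any gene lay 28.4% (26.8% to 30.2%). Of these, 150 peaks (5.41% of the 2775) lay over 100 kb from any gene. The corresponding shares of the cDC1 list were 56.0%, 20.8%, 24.6% and 5.38%. Start sites with strand were given for 17492 genes, and 311 of 2710 cDC2 peaks (11.5%, 10.3% to 12.7%) were centred within 500 bp of one, against 15.5% (15.1% to 15.9%) in cDC1. Of these 311 peaks, 59.5% lay before the start site. The histogram around start sites shows both lists with a narrow summit there and a lower one for cDC2. The median distance to the nearest start site was 20.4 kb in cDC2 and 21.2 kb in cDC1. The 17492 genes are part of the 21887 protein-coding genes. A peak at the start of a gene without an entry counts as away from start sites.

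**Figure D1:**
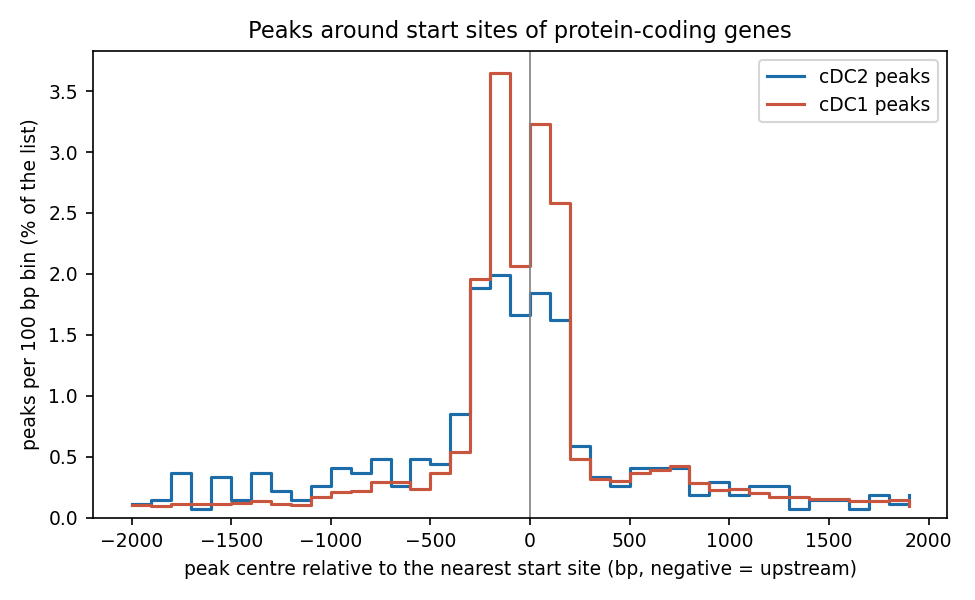
Share of the peaks of each list (vertical axis, percent per bin of 100 bp) by distance of the peak centre from the nearest start site (horizontal axis, bp, negative before the start site). The cDC2 line stays at or below 2% per bin close to the start site, where the cDC1 line passes 3%.

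Peaks at start sites had slightly higher medians than the rest in both wild-type and knockout signal. Their median was 25.1 normalised tags (12.5 tags) in wild type and 4.40 (3 tags) in knockout. For the 2465 other peaks, which include those on chromosomes without a start-site entry, it was 24.1 (11.5 tags) and 3.66 (2.5 tags). The median fold was 6.29 at start sites and 7.62 elsewhere, and the median focus ratio 0.674 and 0.694. Of the 694 peaks with the lowest fold 15.6% were at a start site, and of the 694 with the highest fold 6.63%. Among start-site peaks, 58.5% (52.8% to 64.1%) overlapped a cDC1 peak, and among peaks over 10 kb from genes 68.2% (64.8% to 71.4%).

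By chromosome, the density of peaks was highest on chromosome 19, with 108 peaks or 17.6 per 10 Mb, followed by chromosome 11 with 16.5 and chromosome 7 with 13.5. Chromosomes 14, 18, 3 and 8 had the lowest autosomal densities, 6.66, 7.17, 7.44 and 7.97 per 10 Mb. Per 100 protein-coding genes the order was different: chromosome 16 had 17.8 peaks, chromosome 13 had 17.2, and chromosome 7 had 9.66, the lowest autosomal value. The median fold lay between 6.39 and 8.10 on every autosome. Chromosome X held 48 peaks, 2.81 per 10 Mb, which is 0.254 of the autosomal density of 11.1. In cDC1 that ratio was 0.355. The median X peak had 19.4 normalised tags in wild type, with 31.2% of X peaks at the knockout floor and a median fold of 11.4. The highest X peaks lay inside Otud5, a deubiquitinase gene, and inside Cask, a kinase scaffold gene, with 51.3 normalised tags each. Kdm6a, which encodes a histone H3 lysine 27 demethylase, had 46.1, and Tmsb4x, an actin-binding peptide gene, had 39.8 at a peak 87.6 kb from the gene. The X peaks were picked after their values were seen.

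**Figure D2:**
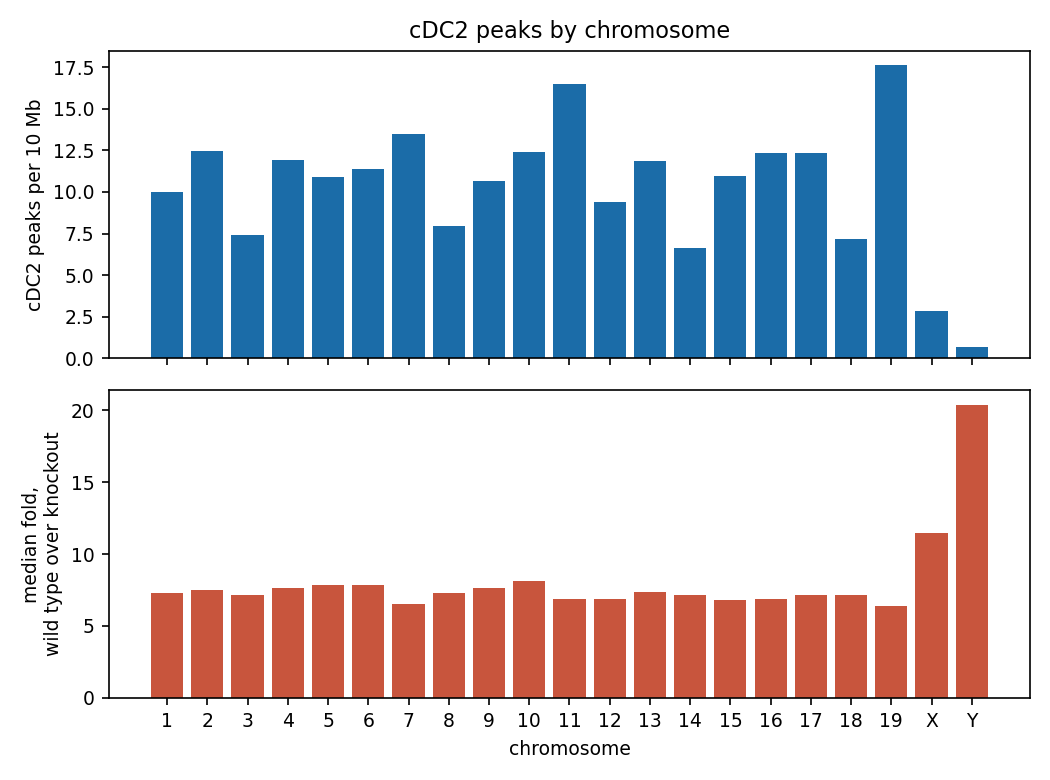
Bars show, for each chromosome, the number of cDC2 peaks per 10 Mb (upper panel) and the median fold of wild type over knockout (lower panel). Density falls from 17.6 on chromosome 19 to 2.81 on X and 0.660 on Y, while the median fold lies between 6.39 and 8.10 on the autosomes and is higher on X and Y.

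Chromosome Y carried 6 peaks although the mice were labelled female, all between 90737951 and 90820016, near the end of the chromosome that holds its region shared with X. The first, at 90737951 to 90738141, had 79.6 normalised tags (39 tags) in wild type and the floor value in knockout, so its fold had a lower limit of 14.4. The other 5 had between 14.7 and 27.2 normalised tags. At 5 of the 6 a cDC1 peak was listed too, the first with 38.6 normalised tags in wild type, and all 5 had knockout tags at the cDC1 floor. The gene nearest to all 6 was Gm52481. The origin of these tags was not tested.

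The peaks were assigned to 2067 protein-coding genes, 9.44% of the 21887 in the table, by the gene that contained the peak or had the nearest end. Of these genes 1601 had 1 peak, 308 had 2 and 158 had 3 or more, and 1955 (94.6%) also had a cDC1 peak, where 50.8% of all genes had one. The median of the highest peak per gene was 25.1 normalised tags. With only peaks inside or within 10 kb of a gene, 1622 genes (7.41%) had a peak. A gene in a long stretch without other genes collects more peaks by this rule, so counts of gene lists are given for both rules. The lists were chosen with results of these data known, and they carry no test.

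**Figure D3:**
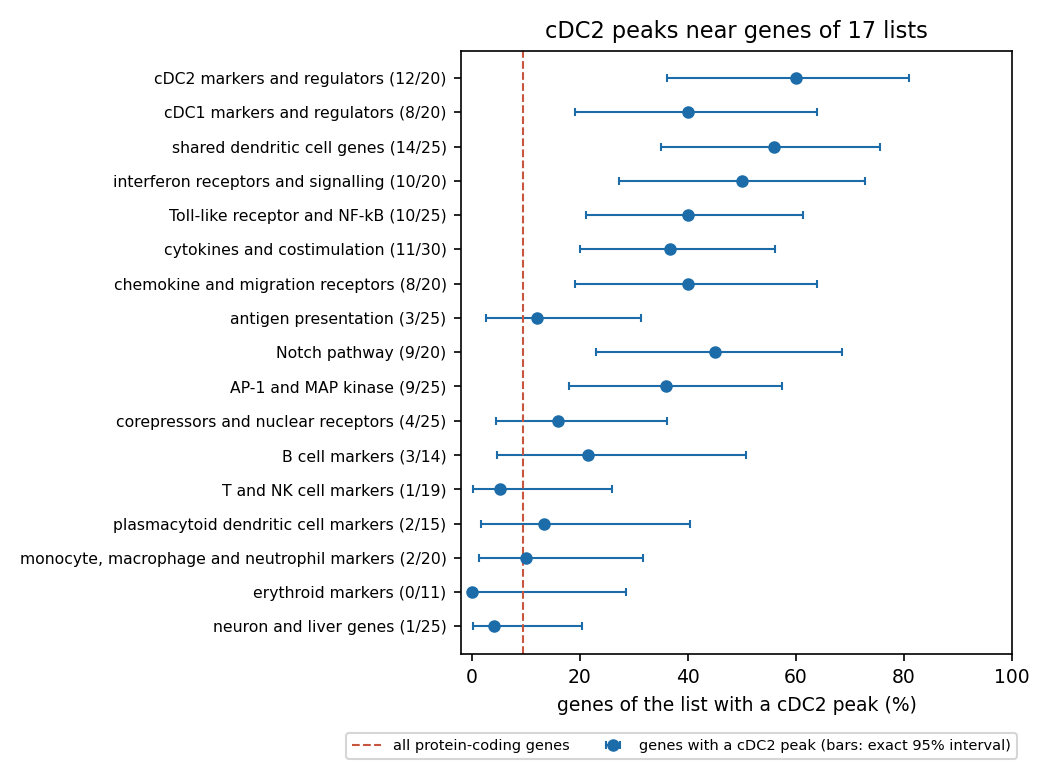
For each of 17 gene lists, the point is the percent of its genes with at least 1 assigned cDC2 peak, the bar its exact 95% interval, and the dashed line the 9.44% over all protein-coding genes. Lists of dendritic cell genes and interferon, Notch and Toll-like receptor genes lie to the right of the line, and the bars of the lists of antigen presentation, corepressors and other cell types cross it.

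Among cDC2 markers and regulators 12 of 20 genes had a peak (60.0%, 36.1% to 80.9%), and 11 of 20 had one within 10 kb. The median of their highest peaks was 20.4 normalised tags, below the 25.1 of all genes with a peak. Clec4a4, a C-type lectin gene of cDC2, had 38.7 normalised tags in wild type (18.5 tags) against 3.5 knockout tags at a peak 0.234 kb from the gene's lower end. Ltb, which encodes lymphotoxin beta, had 32.5 (16 tags) against 5.5 tags, inside the gene. Itgam, which encodes CD11b, had 30.4 (14.5 tags) against 3 tags at its start site, in the stretch printed above, and 2 more peaks inside the gene. Klf4, a transcription factor gene, had 27.2 (13 tags) against 1 tag, 265.8 kb from the gene. All 4 folds had intervals that reached below 3. At the printed stretches of Cx3cr1, the fractalkine receptor gene, and of Notch2, the receptor on which many cDC2 depend, wild-type tags were 12.5 and 9.5, knockout tags were at the floor, and the lower limits of the fold were 4.36 and 3.20. Irf4, a regulator gene of cDC2, had a peak at its start site and another 10.6 kb before it, with 9 wild-type tags at the more distant one. Zeb2, a transcription factor gene, had 10 wild-type and 3 knockout tags inside the gene, 962 bp before the nearest annotated start site. Cx3cr1, Notch2, Irf4 and Zeb2 were added with their values known. The 8 genes without a peak included Sirpa, Clec10a, Mgl2, Cd209a and Esam. Peaks of a chromatin protein do not measure expression, so the labelled cell type could not be checked by its transcripts.

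The cDC1 markers and regulators had a peak at 8 of 20 genes (40.0%, 19.1% to 63.9%), all 8 within 10 kb, and had the higher peaks, with a median of 39.2 normalised tags. Besides Cadm1, the repressor gene Bcl6 had 88.0 (42 tags) against 10 knockout tags, a fold of 6 (2.96 to 13.4), 4.71 kb from the gene. Id2, which encodes an inhibitor of E proteins, had 41.9 (20 tags) against 6.5 tags at a peak 0.27 kb from the gene. Rab7b, a vesicle trafficking gene, had 40.8 (19.5 tags) against 3.5 tags. Irf8, Clec9a, Tlr3 and Wdfy4 had none. All 20 genes of this list had a cDC1 peak, where 50.8% of all protein-coding genes had one. This was not particular to the list. A cDC1 peak was also assigned to 25 of 25 AP-1 and MAP kinase genes and 23 of 25 corepressors and nuclear receptors.

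Of genes shared by dendritic cells 14 of 25 had a peak (56.0%, 34.9% to 75.6%), 11 of them within 10 kb, with a median of 33.5. Etv3, an ETS repressor gene, had 48.2 normalised tags (23 tags) against 3.5 knockout tags, 4.13 kb before its start site. Runx1 and Itgax, the latter the gene of CD11c, had 47.1 each (22.5 tags) against 3 and 5 tags. The Itgax peak lay at the start site and that of Runx1 lay 205.8 kb before it. Zbtb46, a transcription factor gene of the conventional lineage, had 40.8 (19.5 tags) against 5.5 tags and 3 peaks, all inside the gene. Flt3, the gene of the growth factor receptor of these cells, and Spi1, the gene of PU.1, had none.

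Interferon receptor and signalling genes had a peak at 10 of 20 (50%, 27.2% to 72.8%), and 5 of 20 had one within 10 kb. The median highest peak was 40.3. Ifngr1, which encodes part of the interferon gamma receptor, had 64.9 (31 tags) against 4.5 knockout tags at 85.5 kb before its start site, and the same place had 17.6 in cDC1. Ifnar1 had 57.6 (27.5 tags) against 7 tags, 12.3 kb from the gene, with no cDC1 peak there. Jak1 had 55.5 (26.5 tags) against 1.5 tags, a fold of 25.2 (4.85 to 167.4), at 47.9 kb before its start site. The focus ratios of this group's peaks were spread widely, from 0.464 at Jak1 to 0.829 at a second peak of Ifnar1. Stat2 and Irf9, which carry the receptor signal to the nucleus, had none, nor had Irf3 and Irf7.

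Of Toll-like receptor and NF-kB genes 10 of 25 had a peak (40.0%, 21.1% to 61.3%), 5 of 25 within 10 kb. The higher values included 4 genes for inhibitors of this signalling. Tnfaip3, which encodes A20, had 69.1 normalised tags (33 tags) against 6.5 knockout tags, 47.1 kb before its start site. Nfkbie had 54.5 (26 tags) against 6.5 tags at its start site, and Nfkbia had 37.7 (18 tags) against 6 tags. Irak3, an inhibitory kinase gene, had 37.7 (18 tags) against 2 tags inside the gene. Of the receptors, Tlr5 had 38.7, and Tlr1 and Tlr9 had peaks as well, while Tlr2, Tlr4 and Tlr7 did not. The grouping of inhibitors was made after the values were seen, and other members of the list had peaks as well. Among them were Irak4 with 34.6 (16.5 tags) against 2 tags at its start site and Nfkb1 with 29.3 (14 tags) against 5 tags.

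Cytokine and costimulation genes had a peak at 11 of 30 (36.7%, 19.9% to 56.1%), 9 of 30 within 10 kb. Tgfb1, the gene of transforming growth factor beta, had 60.7 (29.5 tags) against 8.5 knockout tags. A peak assigned to the chemokine gene Ccl4 had 50.3 (25 tags) against 7 tags; in the table it lies inside Ccl4 and also 249 bp before the start site of Ccl3. Tnfsf9, the gene of the 4-1BB ligand, had 50.3 (24 tags) against 7 tags, and Cd83, an activation marker gene, had 45 (21.5 tags) against 6 tags. Their folds lay between 4.90 and 5.12. Chemokine and migration receptors had a peak at 8 of 20 (40.0%, 19.1% to 63.9%), but 3 of 20 within 10 kb. Ccr1 had 69.1 (33 tags) against 11 tags at 33.4 kb from the gene, Cxcr5 38.7 (18.5 tags) against 3.5 tags, Itga4 34.6 (16.5 tags) against 2.5 tags, and Cnr2, a cannabinoid receptor gene, 33.5 (16 tags) against 5.5 tags. Ccr7, which guides dendritic cells to lymph nodes, had none.

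Antigen presentation stood near the background, with 3 of 25 genes (12%, 2.55% to 31.2%), all 3 within 10 kb. Ciita, the class II transactivator gene, had 28.3 (13.5 tags) against 1 knockout tag, Cd1d1, which presents lipids, had 31.4 (15 tags) against 3.5 tags, and Marchf1, a ubiquitin ligase that removes class II from the surface, had 16.8 (8 tags) against 1 tag. H2-Aa, H2-Ab1, Cd74, B2m and Tap1 had no peak. Of the Notch pathway, 9 of 20 genes had one (45%, 23.1% to 68.5%), 7 within 10 kb. Rbpj, the DNA-binding partner of Notch, had 56.5 (27 tags) against 7 tags, 15.3 kb from the gene, and Maml3, a coactivator of that complex, had 53.4 (25.5 tags) against 7 tags and 4 peaks inside the gene. Adam17, a protease gene, had 36.7 (17.5 tags) against 6 tags, and Mfng, a glycosyltransferase of Notch receptors, 29.3 (14 tags) against 3.5 tags. AP-1 and MAP kinase genes had a peak at 9 of 25 (36.0%, 18.0% to 57.5%), 5 of 25 within 10 kb. Jun had 60.7 (29 tags) against 8 tags at 54.1 kb before its start site, and Fos had 50.3 (24 tags) against 2.5 tags at 5.24 kb before its own, where no cDC1 peak was listed. Atf3 had 36.7 (17.5 tags) against 5 tags, and the phosphatase gene Dusp6 had 35.6 (17 tags) against 5.5 tags with 4 peaks in all.

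Corepressors and nuclear receptors, with which DC-SCRIPT is known to work, had a peak at 4 of 25 (16%, 4.54% to 36.1%): Rarb with 30.4, Nrip1 with 29.3, Nr4a3 with 25.1 and Rcor1 with 20.9. Of these 4 genes 3 had a peak within 10 kb. Ctbp1, Ctbp2, Vdr and Esr1 had none. Of the markers of other cells of the spleen, 3 of 14 B cell genes had a peak (Bank1 with 27.2, Fcrla with 25.1 and Blk with 18.8), 1 of 19 T and NK cell genes (Cd8b1 with 19.9) and 2 of 15 plasmacytoid genes (Cd300c with 28.3 and Runx2 with 23.0). Monocyte, macrophage and neutrophil genes had 2 of 20, which were Adgre1 with 37.7 and Cd163 with 18.8. Erythroid genes had 0 of 11, which by the exact interval allows a share of up to 28.5%, and neuron and liver genes had 1 of 25, which was Ttr with 16.8. Within 10 kb the counts were 2 B cell genes, 1 T and NK cell gene, 1 plasmacytoid gene, and 0 in the other 3 lists. All 6 of these lists hold the 9.44% of all genes inside their interval, as do the corepressor and antigen presentation lists.

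Some genes collected several peaks. Tomm20 had 7. These peaks all lay over 10 kb outside that gene, which encodes a subunit of the mitochondrial import machinery, and 6 of them stood within 43.3 kb of each other. The highest had 63.9 normalised tags (30.5 tags) in wild type and 6 knockout tags. Tet2, which encodes an enzyme that oxidises methylcytosine, had 6 with 48.2 at most, Id2 had 6 with 41.9, and Akap13, a scaffold gene, had 6 with 35.6. Bcl6, Antxr2, Tex14 and Tent5c had 5 each. The 5 of Tex14 all lay inside the gene within 28.2 kb, with 80.6 normalised tags at the highest and focus ratios of 0.906 and 0.917 at the pair furthest from the start site. Tent5c had a peak of 50.3 (24 tags) against 1 knockout tag, a fold of 34.3 (5.59 to 1410.7).

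Joining peaks less than 50 kb apart gave 2082 runs, of which 53 held 4 or more peaks, and 42.1% of peaks had at least 1 neighbour in their run. The longest by count held 8 peaks over 164.1 kb of chromosome 1, with 47.1 normalised tags at the highest. They were assigned to the Fc receptor genes Fcgr2b, Fcgr4, Fcrla and Fcrlb and to Atf6 and Dusp12. Runs of 6 peaks included 1 at Arl3, Borcs7, Trim8 and Wbp1l on chromosome 19, with 61.8 normalised tags at the highest. Others of 6 lay at the chemokine genes Ccl3 to Ccl6 on chromosome 11 and at Fos, Nek9 and Tmed10 on chromosome 12. A further run of 6 lay at the DNA sensor gene Aim2 beside Cadm3 on chromosome 1. The highest peak of the last run had only 32.5 normalised tags. Ifitm1 and Ifitm3, which restrict virus entry, lay in a run of 5 with 85.9 at the highest. Lta and Ltb lay in a run of 5 with 51.3, and Cd80, a costimulatory ligand gene, in one of 5 with 48.2. Runs of 5 also lay at genes such as Bcas1 and Zfp217, and Atp8b4 and Slc27a2. The runs were chosen after their values were seen.

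Zfp366 itself had 1 cDC2 peak, inside the gene at chr13:99207466-99207656, with 8 wild-type and 1.5 knockout tags. It ranked 2405 of 2776 by wild-type signal, had a focus ratio of 0.529, and overlapped no cDC1 peak. Its fold of 7.62 had an interval of 1.14 to 55.3. Whether this stretch is still present in the knockout cells is not given and was not tested. The fold here therefore cannot be read as at other genes.

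The overlap with cDC1 rose with height. Counting 1 shared bp as overlap, the share was 63.7% over the whole list. It was 47.4% (43.6% to 51.2%) in the 694 peaks of lowest wild-type signal, 55.0% and 69.5% in the next groups of 694, and 82.7% (79.7% to 85.5%) in the 694 of highest. The centres of overlapping peaks lay 40 bp apart at the median. Across the 1767 shared regions, the rank correlation between subsets was 0.60 for wild-type signal, 0.38 for knockout signal and 0.07 for the fold. The regions share the genome position and the peak caller's limits, and the cDC2 tags were fewer. Wild-type signal was higher in cDC2 at 42.7% of shared regions, knockout signal at 74.6% and the fold at 22.8%. One limit is the count scale: 1 knockout tag was worth 1.47 normalised tags in cDC2 and 0.824 in cDC1. The knockout floor was worth 0.733 and 0.412. Equal low knockout counts therefore score as higher in cDC2, so the knockout and fold shares are in part set by depth. The wild-type share is limited as well. The lowest wild-type value among shared regions was 12.6 in cDC2 and 4.93 in cDC1. Genotype pools, depth and subset differ together between the lists and cannot be told apart.

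**Figure D4:**
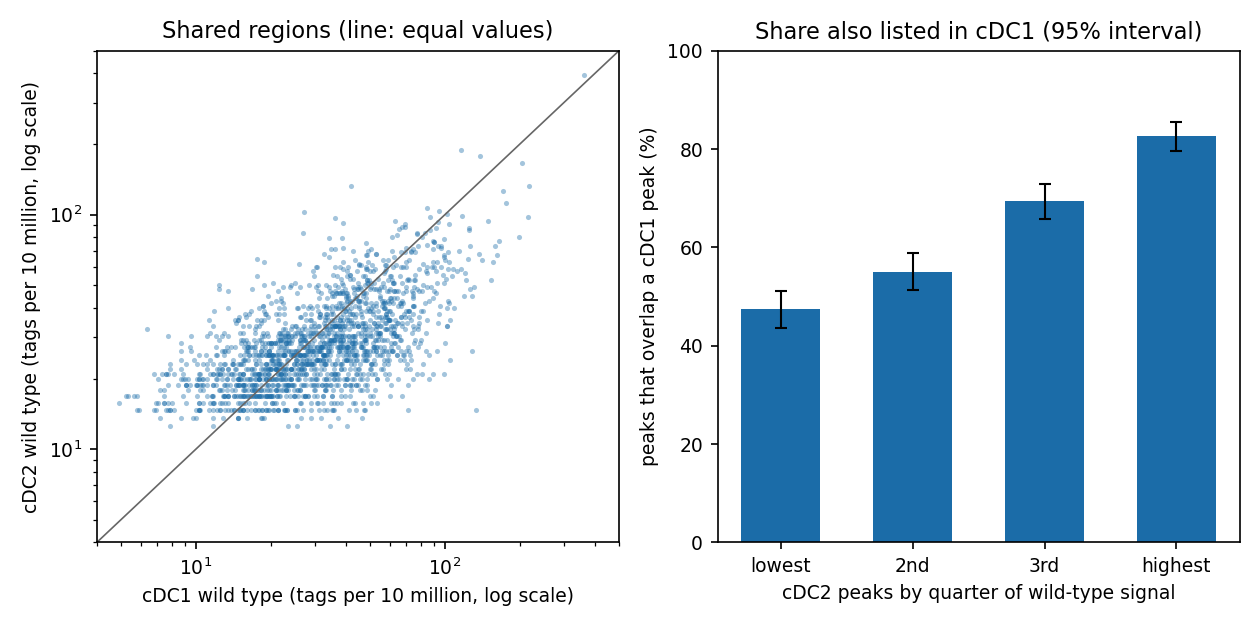
Left, each point is a shared region with wild-type signal in cDC1 (horizontal) and cDC2 (vertical) as normalised tags on log scales, with a line of equal values. Right, bars give the percent of cDC2 peaks that overlap a cDC1 peak in 4 groups of equal size, ordered from lowest to highest cDC2 wild-type signal, with exact 95% intervals, from 47.4% to 82.7%.

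The highest cDC2 peaks without a cDC1 peak at the place lay inside Ptpn3, a phosphatase gene, inside Plekhg3, inside Vasp, an actin regulator gene, near Grb2, an adaptor gene, and at the start site of Arhgap11a. Ptpn3 had 72.3 normalised tags (35.5 tags) in wild type and 10.5 knockout tags. Plekhg3 had 71.2 (34 tags) against 8.5, and Vasp 69.1 (33 tags) against 8.5. Grb2 had 66.0 (31.5 tags) against 11 tags and Arhgap11a 62.8 (30 tags) against 7.5. Their folds ran from 4.09 to 5.72, in the range usual for high peaks, since the 694 of highest wild-type signal had a median of 5.72. Low folds did not mark the peaks without a cDC1 peak as a group. The median fold was 8.58 over all 1009 of them and 6.83 over the 1767 shared peaks. A region absent from the cDC1 list may have missed that list's limits in cDC1, so absence does not measure a difference between subsets, and none was tested.

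Among the 197 shared regions with at least 50 normalised tags in cDC2, 103 had the higher wild-type value in cDC2. The ratio of cDC2 to cDC1 ran from 0.342 to 4.06 with a median of 1.01. The limit of 50 was set on the cDC2 value alone, so the choice of regions itself raises the ratio. Over all 1767 shared regions the cDC2 value was the higher at 42.7%. The highest ratios, picked after the values were seen, were those of Adgrg6, an adhesion receptor gene, with 50.3 in cDC2 and 12.4 in cDC1, B4galnt1 with 102.6 and 27.2, Ifngr1 with 64.9 and 17.6, and 4933412E24Rik with 62.8 and 18.7. The lowest were those of Il2ra, the interleukin 2 receptor alpha gene, with 52.4 and 153.2, Iqgap1, a scaffold gene, with 62.8 and 155.8, Klf6, a transcription factor gene, with 80.6 and 198.8, and a peak inside Antxr2 with 67.0 and 162.1. With 24 to 49 wild-type tags behind each cDC2 value and no replicate, these ratios describe the 2 wild-type sets.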

How the data were processed

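CUT&Tag peaks of DC-SCRIPT in cDC2 were taken from the authors' deposited table, with the cDC1 table beside it. Peaks were called with HOMER findPeaks (factor style), with 1 set of wild-type tags as the target and 1 set of knockout tags as its control, per the file headers: peaks of 191 bp, a fold of at least 4 and a Poisson p of at most 0.0001 over knockout and over the surrounding 10 kb, and a false discovery rate of 0.001. Of 19569 putative cDC2 peaks the knockout removed 15527, the surroundings 1266, and 2776 (14.2%) were kept, per the file headers. The builds GRCm38 and mm10 come from the submitters' processing notes; the aligner, the duplicate treatment and the libraries behind each set were not given in the sources used here.

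Deposited signal is the wild-type tag count scaled to 10000000. The deposited focus ratio is a fraction, and the deposited score is HOMER's, used to rank peaks. The deposited fold is the authors' ratio of wild-type to knockout tags, and the deposited p-value is a Poisson p over tags, not used for any statement. Control tags are given at wild-type depth; dividing by the depth ratio returned knockout tags in steps of 0.5, within 0.0202 tag. Exact (Clopper-Pearson) intervals of a fold used tags rounded up to whole numbers. Molecular identifiers are not given in those sources, so repeated tags count as separate and intervals may be too narrow. The interval code was tested on simulated whole tag counts drawn without the authors' limits on fold and p. That test does not cover the selection of peaks, and the intervals do not allow for it.

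Peaks were assigned by their centre to 21887 protein-coding genes of RefSeq GRCm38.p6, using Python 3.11.15, pandas 2.3.3, NumPy 2.4.6 and SciPy 1.17.1. Strand and start sites came from the RefSeq promoter table (17492 genes), and start-site counts cover the 2710 peaks on a chromosome with an entry. Of 362 entries in 17 gene lists, 359 matched by symbol, and Ighm, Trac and Ahsp did not. The members, the lists and the rules were chosen with earlier results of these data known. Named genes are those of the 15 highest peaks with a gene, the 5 highest and 5 lowest focus ratios among the top 100, the 5 with most knockout tags, the 5 highest at the knockout floor, the 5 highest outside the cDC1 list, the 3 lowest folds, the 10 genes with most peaks, up to 4 genes per list, and Zfp366; others are said to be picked after seeing values. Some genes under this rule are not reported here. Alternatives were an overlap of 50% or centres within 1 kb, 5 kb for gene ends, all 49943 annotated genes, a fold of at least 8, and the higher-scoring 50% of peaks.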

Additional observations from a re-analysis of the deposited data

How the results depend on the processing

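With a fold of at least 8, the median was 18.8 normalised tags, the median fold 12.2 and the median focus ratio 0.697, 13.7% of peaks lay within 1 kb of a gene end, 56.7% overlapped a cDC1 peak, and 1094 genes had a peak. With the higher-scoring 50% of peaks these were 32.5, 5.85, 0.688, and 1104 genes, with 47.0% inside a gene, 30.3% over 10 kb from any gene and 75.9% shared. Counting all annotated genes put 61.1% inside a gene, 23.6% near a gene end and 12.9% far from any, and a limit of 5 kb put 33.3% near a gene end. An overlap of 50% left 49.3% shared, and centres within 1 kb gave 78.2%. Under both peak subsets the background fell to 5% and 5.04% of genes. With a fold of at least 8, genes with a peak fell from 10 to 3 in the Toll-like receptor and NF-kB list, 11 to 4 in cytokines and costimulation, 10 to 5 in interferon, 8 to 4 in chemokine and migration receptors and 4 to 2 in corepressors. With the higher scores they fell from 12 to 5 among cDC2 markers and from 9 to 5 in both the Notch and the AP-1 lists. Among the lists of other cell types, counts of 1 to 2 genes moved by 1 or 2. The self-chosen limits move the values by construction, since they keep fewer peaks. No paired analysis was possible because each table holds 1 pooled wild-type and 1 pooled knockout set, and for the same reason leaving out a library could not be run. The median peak rests on 11.5 wild-type tags, so folds of single peaks have wide intervals.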
